A study of Homo sapiens with 15 samples.

Results

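The SR proteins and the heterogeneous nuclear ribonucleoproteins (hnRNPs) were followed as mRNAs in a breast cancer line, MDA-MB-231, exposed to the compound ZJ-101. Their genes were taken from the deposited table by symbol, as SRSF followed by a number or HNRNP followed by letters and digits, where the average across all 15 libraries reached 50 normalized counts. Of 161 symbols with such a name, 38 passed this level, out of 59608 genes listed and 13561 genes tested. The 38 comprised 11 SR proteins, 21 hnRNP genes and 6 symbols with the form of a pseudogene name. Of the 161 symbols, 79 were listed at 0 in every library. The symbols just below the minimum were HNRNPKP4 at a mean of 46.2 and HNRNPA3P5 at 34.5, and those just above it were HNRNPA3P6 at 56.3 and HNRNPLP2 at 84.4. Of the 12 SRSF symbols, SRSF12 did not reach the minimum.

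SR proteins carry RNA recognition motifs and a tail rich in arginine and serine, and they bind exonic enhancers, recruit the spliceosome and accompany mRNA to the cytoplasm. The hnRNPs coat nascent transcripts and often act against exon inclusion, although several of them also govern mRNA stability, export and translation. Many genes of both families limit their own level by splicing in an exon that carries an early stop codon, which sends the transcript to nonsense-mediated decay. Counts per gene do not separate such isoforms, so the values here describe the sum of all transcripts of a gene.

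MDA-MB-231 is a human triple-negative breast cancer line with a mesenchymal, basal-like profile. ZJ-101 is a simplified analog of superstolide A, a macrolide from a marine sponge. Cells in 2D culture received 0.1% DMSO alone or 0.5, 5, 50 or 500 nM ZJ-101 for 6 h, with 3 replicate dishes for each of the 5 groups. Poly-A RNA was sequenced, and the deposited values were read counts per gene divided by a size factor for each library, referred to here as normalized counts.

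The 15 libraries held between 12415519 and 15284762 reads on genes. Vimentin (VIM, 13430 to 18410 normalized counts), CD44, EGFR and CAV1 were high in all libraries, whereas ESR1, which encodes the estrogen receptor, stayed between 0 and 4.3 and the leukocyte marker PTPRC between 0 and 3.5. CDH1 was measured at 107 to 206 and EPCAM at 266 to 320, so these epithelial markers were low but not absent. The HER2 gene ERBB2, listed here as a low marker, was measured at 1136 to 1328 and PGR at 5.4 to 17.3. GATA3, also listed as low, was at 122 to 168. PECAM1 and COL1A1, listed with PTPRC as markers of other cell types, were not absent, at 201 to 321 and 165 to 224. The 38 symbols together took 1.12 to 1.20% of the reads in a library. In DMSO this share was 1.16% ± 0.013 (SD, n = 3), and at 500 nM it was 1.19% ± 0.016.

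Per kilobase of the reference transcript, the core hnRNPs were the most abundant of these mRNAs in DMSO. HNRNPA2B1 stood at 4618 ± 63.2 (SD, n = 3) normalized counts per kilobase, HNRNPA1 at 4375 ± 18.2, HNRNPK at 3733 ± 32.2 and HNRNPC at 3479 ± 69.1. The 3 DMSO libraries of each of these 4 genes did not overlap with those of the next one in the order. HNRNPAB, HNRNPF, HNRNPM and SRSF9, between 2343 and 2469, were close to each other, and the ranges of HNRNPF and HNRNPM overlapped. SRSF9 was the highest SR protein at 2343 ± 23.0, ahead of SRSF3 at 1444 ± 29.6, SRSF5 at 1182 ± 42.0 and SRSF2 at 1149 ± 21.7. The ranges of SRSF5 and SRSF2 overlapped. The founding SR protein SRSF1 was far lower at 222 ± 8.12, and SRSF8, a retrogene relative of SRSF2, was the lowest SR protein at 143 ± 5.33. The lowest gene apart from the pseudogene symbols was HNRNPUL2 at 109 ± 4.13. Other annotated genes overlap 35.1% of the SRSF1 exon length and 44.3% of that of HNRNPUL2, mostly on the same strand. The part of these overlaps in the low levels was not tested. The order depended on the length used. When all annotated exons were counted, HNRNPA1 led at 2446, HNRNPAB followed at 2063, HNRNPA2B1 stood at rank 6 with 1328 and SRSF9 at rank 14 with 682.

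**Figure D1:**
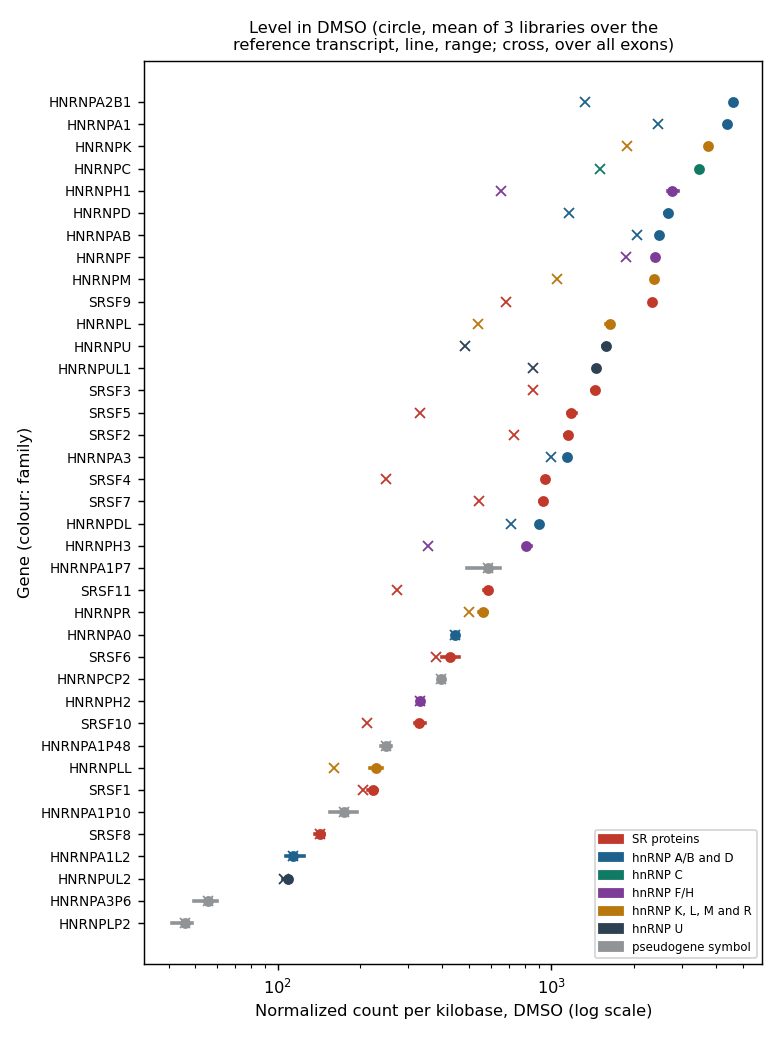
Level of each of the 38 symbols in DMSO, in normalized counts per kilobase on a log axis. Circles are means of 3 libraries over the reference transcript with lines for their range, and crosses use the length of all annotated exons. HNRNPA2B1, HNRNPA1, HNRNPK and HNRNPC lead by reference transcript, and genes with many annotated exons shift most to the left.

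To see whether ZJ-101 altered these mRNAs, each dose was compared with DMSO on the log2(normalized count + 1) scale with limma, and p-values were adjusted by Benjamini-Hochberg over all 13561 genes. The 4 comparisons share the DMSO libraries. At 0.5 nM none of the 38 symbols passed an adjusted p of 0.05, while 1.17% of all tested genes did, and at 5 nM again none did against 2.18% of all genes. At an unadjusted p under 0.05, limma gave 1 of the 38 at 0.5 nM (2.63%, against 14.7% of all genes) and 3 at 5 nM (7.89%, against 12.9% of all genes). The edgeR quasi-likelihood test and DESeq2, run on recovered reads, also gave 0 of the 38 at both doses. At 50 nM a single gene rose, SRSF7, which is 2.63% of the 38 against 2.29% of all genes called higher and 6.00% called in either direction. At 500 nM the SR proteins SRSF5 and SRSF7 and the hnRNP gene HNRNPU rose and SRSF9 fell. These 4 genes are 10.5% of the 38, against 17.8% of all tested genes. The 3 that rose compare with 7.69% of all genes called higher (7.89% of the 38), and the 1 that fell with 10.1% called lower (2.63% of the 38).

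The changes were small at every dose. The median absolute log2 fold change of the 38 symbols was 0.05 at 0.5 nM, 0.04 at 5 nM, 0.05 at 50 nM and 0.06 at 500 nM. Over all tested genes the same median was 0.09, 0.08, 0.09 and 0.12. The signed median of the 38 at 500 nM was 0.05 against 0.003 for all genes, with 27 above 0 and 11 below. Those above 0 were 6 of the 11 SR proteins, 15 of the 21 hnRNP genes and all 6 pseudogene symbols. The values of the pseudogene symbols are uncertain, as described below. The symbol farthest from DMSO at 500 nM was HNRNPLP2 with a log2 fold change of 0.26, and 23.4% of all tested genes lay at least that far from 0. At 500 nM the 95% confidence interval of the log2 fold change lay within ±0.5 for 37 of the 38 symbols and within ±0.25 for 28, against 68.7% and 32.6% of all tested genes. The exception at ±0.5 was HNRNPLP2. The members were also measured more tightly than most genes. Their median within-group SD was 0.06 on the log2 scale, against 0.11 over all tested genes, and HNRNPK had the lowest within-group SD of the 13561 genes, at 0.015. The 38 were chosen at a mean of at least 50, while all tested genes needed only 10. Genes of a similar level were not compared, so the part of the level in these contrasts was not tested. In the libraries themselves, 14 of the 38 had 500 nM values that did not overlap with DMSO, which is 36.8% against 38.5% of all tested genes. Of these, 10 were higher at 500 nM (26.3% of the 38, against 18.9% of all genes) and 4 were lower (10.5%, against 19.6%).

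**Figure D2:**
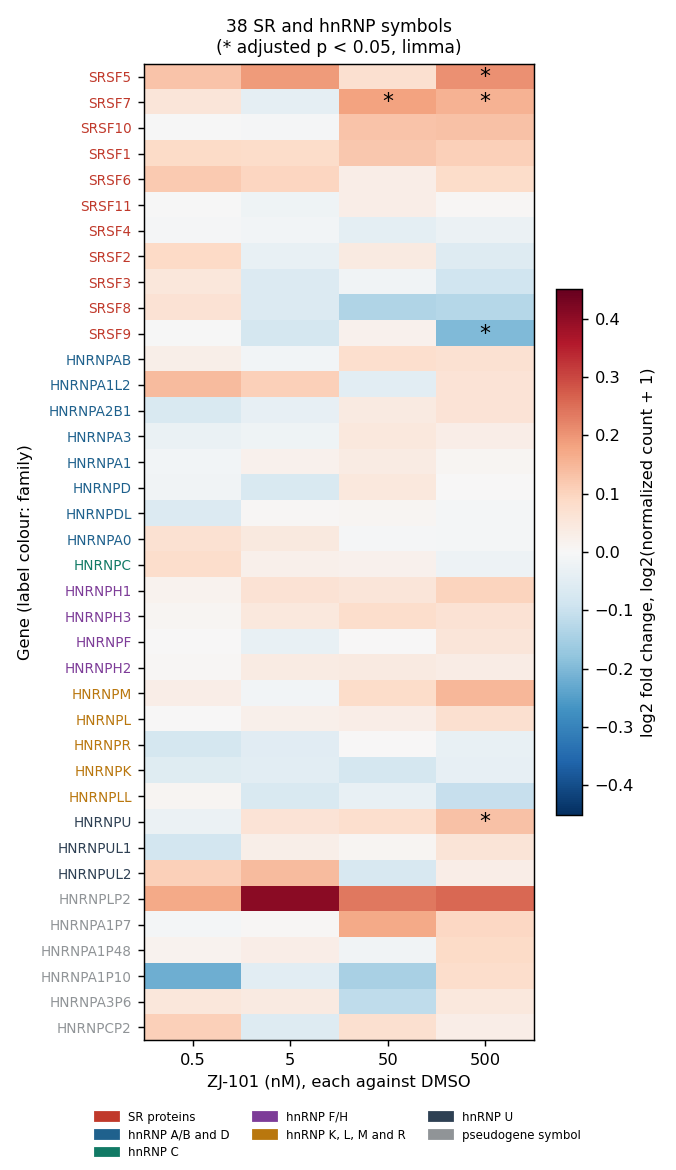
Log2 fold change against DMSO of each of the 38 symbols (rows, label colour by family) at 4 doses of ZJ-101 (columns), with asterisks for an adjusted p under 0.05. Asterisks stand at SRSF7 for 50 nM and at SRSF5, SRSF7, SRSF9 and HNRNPU for 500 nM, and the darkest cell is the pseudogene symbol HNRNPLP2 at 5 nM (0.41, adjusted p = 0.14).

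The promoters of the 4 genes called at 500 nM are shown because 3 of them rose and 1 fell at that dose. Each sequence is the 250 bases before the RefSeq start site on GRCh38.p14, which for all 4 genes was also the start of the reference transcript. Capitals mark matches, on either strand, to 9 short motifs. These were GAANNTTC and TTCNNGAA (paired half-sites of the heat shock element), the ETS factor site CCGGAAG, the GC box GGGCGG, the CCAAT box, the TATA box as TATAAA, the YY1 site ATGGCGG, the NRF1 site GCATGCGC and the cyclic AMP response element TGACGTCA.
SRSF5 (chr14:69766892-69767141, plus strand): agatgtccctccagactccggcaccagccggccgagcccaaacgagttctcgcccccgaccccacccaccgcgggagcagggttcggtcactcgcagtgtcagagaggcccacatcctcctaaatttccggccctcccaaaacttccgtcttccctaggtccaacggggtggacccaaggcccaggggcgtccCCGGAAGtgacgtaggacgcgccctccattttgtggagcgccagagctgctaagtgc
SRSF7 (chr2:38751362-38751611, minus strand): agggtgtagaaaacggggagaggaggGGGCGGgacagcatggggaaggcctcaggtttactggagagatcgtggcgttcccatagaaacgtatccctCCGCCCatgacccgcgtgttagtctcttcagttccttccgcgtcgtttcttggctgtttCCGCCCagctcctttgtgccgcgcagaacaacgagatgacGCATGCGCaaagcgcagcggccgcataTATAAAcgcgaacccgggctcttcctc
HNRNPU (chr1:244864544-244864793, minus strand): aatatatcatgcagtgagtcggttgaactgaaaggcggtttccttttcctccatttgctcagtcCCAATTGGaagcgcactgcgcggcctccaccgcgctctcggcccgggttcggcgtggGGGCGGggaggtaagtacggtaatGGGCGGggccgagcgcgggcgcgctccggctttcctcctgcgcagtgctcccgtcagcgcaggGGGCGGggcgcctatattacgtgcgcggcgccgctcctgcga
SRSF9 (chr12:120469749-120469998, minus strand): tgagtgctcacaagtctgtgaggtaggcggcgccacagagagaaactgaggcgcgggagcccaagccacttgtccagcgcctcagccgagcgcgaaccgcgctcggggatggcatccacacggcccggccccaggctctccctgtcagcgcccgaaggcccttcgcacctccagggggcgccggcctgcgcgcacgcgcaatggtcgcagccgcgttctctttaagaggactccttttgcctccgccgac

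SRSF5 held 1 match, to CCGGAAG, 57 bases before the start, a motif found in 8.52% of 35116 such windows. SRSF7 held 3 GC boxes, a TATAAA 27 bases before the start and a GCATGCGC 54 bases before it. TATAAA occurred in 10.7% and GCATGCGC in 2.63% of all windows. HNRNPU held 3 GC boxes, the nearest 42 bases before the start, and overlapping CCAAT letters on both strands. A GC box occurred in 42.6% of all windows and CCAAT in 32% of them. SRSF9 held none of the 9 motifs, and no motif was shared by all 3 genes that rose. The heat shock letters occurred in none of the 4 windows, against 5.78% and 6.62% of all windows for the 2 arrangements, and ATGGCGG (2.88% of all windows) and TGACGTCA (1.65%) were also not found in them. Exons of other annotated transcripts covered all 250 bases for SRSF5 and HNRNPU, 211 for SRSF7 and 149 for SRSF9, where they belong to the neighbour DYNLL1. Of the 38 symbols, 30 matched a promoter entry, and their windows had a median GC content of 65.2% against 58% over all windows. Among these 30, 20 held a GC box and 18 a CCAAT in at least 1 of their windows. These counts are per gene, so they cannot be set against the shares of single windows.

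SRSF5 (chr14:69726900-69772005, plus strand) encodes an SR protein of the SRSF4 and SRSF6 subgroup. Its DMSO libraries had 1752, 1715 and 1837 normalized counts, and those at 500 nM had 1915, 2229 and 1986. All 500 nM libraries were above all DMSO libraries, with replicate 2 the highest. The log2 fold change was 0.21 ± 0.06 (SE), a 1.15-fold rise with an adjusted p of 0.017 in limma. The rise did not follow the dose. At 0.5 nM SRSF5 had 1904, 2070 and 1833, at 5 nM 2057, 1960 and 2040, and at 50 nM 1809, 1829 and 1941. The 5 nM libraries were also all above DMSO, at a log2 fold change of 0.19 that did not pass (adjusted p = 0.10), whereas those at 50 nM overlapped DMSO (0.07, adjusted p = 0.59). The 500 nM call was lost without 500 nM replicate 2 (log2 fold change 0.14, adjusted p = 0.12), without DMSO replicate 1 (0.20, adjusted p = 0.057) and without DMSO replicate 2 (0.18, adjusted p = 0.078). At 5 nM the same gene passed without 0.5 nM replicate 2 (adjusted p = 0.032), and with the 6 libraries of the 2 groups alone (adjusted p = 0.0074).

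SRSF7 (chr2:38743599-38751494, minus strand) encodes an SR protein with a zinc knuckle that, like SRSF3, serves as an adaptor in mRNA export. It had 2204, 2144 and 2240 normalized counts in DMSO, and 2222, 2414 and 2211 at 0.5 nM. At 5 nM it had 2180, 2163 and 2068. The values at 50 nM were 2602, 2430 and 2433, and those at 500 nM were 2402, 2499 and 2442. The libraries at 50 and 500 nM were all above those of DMSO and 5 nM, and 2 of the 3 at 0.5 nM lay within the DMSO range. The log2 fold change was 0.18 ± 0.05 at 50 nM (1.13-fold, adjusted p = 0.020) and 0.16 ± 0.05 at 500 nM (1.11-fold, adjusted p = 0.020). From 5 to 50 nM SRSF7 rose by a log2 fold change of 0.22 (adjusted p = 0.0061), the only one of the 38 to pass in that step, in which 5.01% of all tested genes passed. From 50 to 500 nM it did not pass, with a difference of -0.02 and a 95% confidence interval from -0.12 to 0.07. The 50 nM call was lost without DMSO replicate 1 (adjusted p = 0.063), DMSO replicate 2 (adjusted p = 0.11) or 50 nM replicate 1 (adjusted p = 0.12). The 500 nM call was lost without DMSO replicate 1 (adjusted p = 0.055), DMSO replicate 2 (adjusted p = 0.094), 500 nM replicate 2 (adjusted p = 0.085) or 500 nM replicate 3 (adjusted p = 0.054).

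HNRNPU (chr1:244840638-244864560, minus strand) encodes scaffold attachment factor A, an hnRNP that binds both RNA and DNA in the nuclear matrix. It had 10961, 10594 and 11042 normalized counts in DMSO and 11069, 10436 and 10530 at 0.5 nM. At 5 nM it had 11232, 11436 and 11307, at 50 nM 11664, 10911 and 11758, and at 500 nM 12233, 11809 and 11702. The libraries at 5 and 500 nM were all above DMSO, while 1 of the 3 at 50 nM lay within the DMSO range. At 500 nM the log2 fold change was 0.13 ± 0.04 (1.10-fold, adjusted p = 0.030). Across the 5 groups, HNRNPU rose with the rank of the dose at a slope of 0.04 ± 0.01 per step (adjusted p = 0.014). The 500 nM call was lost when any single DMSO or 500 nM library was left out, with log2 fold changes of 0.11 to 0.15 and adjusted p from 0.0504 to 0.136. HNRNPU shares 19.0% of its exon length with other genes. The main one, COX20, is on the opposite strand and averaged 3.27 normalized counts. Whether counting used strand was not given, and the part of the overlap in either count was not tested.

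SRSF9 (chr12:120461672-120495946, minus strand) encodes an SR protein similar to SRSF1. It had 2728, 2676 and 2695 normalized counts in DMSO and 2689, 2890 and 2528 at 0.5 nM. At 5 nM it had 2395, 2577 and 2712, at 50 nM 2727, 2742 and 2747, and at 500 nM 2539, 2400 and 2136. All 500 nM libraries were below all DMSO and 50 nM libraries, although 2 of the 3 at 5 nM were also below DMSO. The log2 fold change at 500 nM was -0.20 ± 0.06 (0.871-fold, adjusted p = 0.028). Without 500 nM replicate 3, the lowest library, it was -0.13 and did not pass (adjusted p = 0.18). The call was also lost without 500 nM replicate 2 (adjusted p = 0.051) or without DMSO replicate 1 (0.087), 2 (0.066) or 3 (0.071). From 50 to 500 nM the difference was -0.22 ± 0.06 (adjusted p = 0.071). None of the 38 passed this step with limma, where 2.28% of all genes passed. Unadjusted, 2 of the 38 were under 0.05 (5.26%, against 13.1% of all genes). The edgeR test gave 0, and DESeq2 gave 1, SRSF9 (adjusted p = 0.030). Other genes overlap 46.7% of the SRSF9 exon length. The largest overlap is with GATC on the opposite strand, which had 486 to 518 normalized counts in DMSO and 500 to 580 at 500 nM (log2 fold change 0.07, adjusted p = 0.61). The part of this overlap in the counts was not tested.

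**Figure D3:**
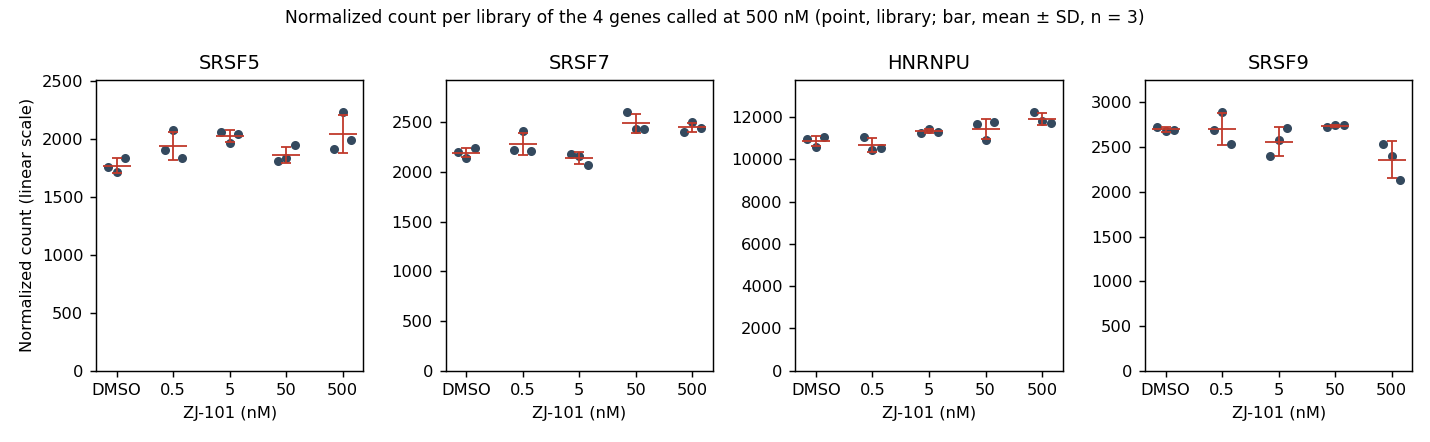
Normalized counts (linear axis from 0) of SRSF5, SRSF7, HNRNPU and SRSF9 in each of 15 libraries by dose of ZJ-101, with the mean and SD of 3 libraries. The 500 nM libraries lie above DMSO for the first 3 genes and below it for SRSF9, by 1.15, 1.11, 1.10 and 0.871-fold.

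A trend over the 5 groups was tested as a linear slope, with the doses numbered in ascending order from DMSO. Of the 38 symbols 4 passed, or 10.5%, against 17.6% of all tested genes. HNRNPU, SRSF7 and SRSF10 rose (8.23% of all genes did) and SRSF8 fell (9.33% of all genes did). SRSF7 had a slope of 0.04 ± 0.01 per step (adjusted p = 0.029). SRSF10, an SR protein known to be dephosphorylated in heat shock, had 2525 ± 115 (SD, n = 3) normalized counts in DMSO, 2523 ± 128 at 0.5 nM, 2514 ± 66.9 at 5 nM, 2761 ± 93.4 at 50 nM and 2770 ± 188 at 500 nM. The first 3 means were nearly equal and the last 2 were higher. Its slope was 0.04 ± 0.01 (adjusted p = 0.037), but neither 50 nM (log2 fold change 0.13, adjusted p = 0.20) nor 500 nM (0.13, adjusted p = 0.10) passed alone. SRSF8 had 617 ± 23.0 in DMSO, 645 ± 22.8 at 0.5 nM, 591 ± 9.61 at 5 nM, 561 ± 16.9 at 50 nM and 563 ± 12.3 at 500 nM. Its slope was -0.05 ± 0.01 (adjusted p = 0.016), and the difference at 500 nM was -0.13 (adjusted p = 0.099). The slope of SRSF8 passed without each of the 15 libraries in turn. Those of SRSF10, SRSF7 and HNRNPU were lost without some. SRSF10 lost it when any of 7 libraries was absent, namely DMSO replicates 1 and 2, 0.5 nM replicate 3, 50 nM replicates 1 and 3 and 500 nM replicates 2 and 3 (adjusted p up to 0.13). SRSF7 lost it when DMSO replicate 2 or either of 500 nM replicates 2 and 3 was absent (up to 0.081), and with the 12 treated libraries alone (slope 0.05, adjusted p = 0.086), and HNRNPU without 500 nM replicate 1 (0.057).

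The SR proteins differed from each other in direction at 500 nM. Of the 11, 2 rose, 1 fell and 8 did not pass, where 7.69% of all tested genes rose and 10.1% fell. The log2 fold changes of the 11 ran from -0.20 to 0.21, with a median of 0.004. Their median absolute change was 0.11, close to the 0.12 of all genes, whereas that of the 21 hnRNP genes was 0.05. The median within-group SD was also larger for the SR proteins, at 0.075 on the log2 scale against 0.053 for the hnRNP genes. Among those that did not pass, SRSF3, the smallest SR protein, had 6105 ± 125 (SD, n = 3) without ZJ-101 and 5737 ± 122 at 500 nM, with no overlap of the libraries (log2 fold change -0.09, adjusted p = 0.34). SRSF1 was at 0.11 (adjusted p = 0.40), SRSF6 at 0.08 (0.54), SRSF11 at 0.004 (0.97), SRSF4 at -0.03 (0.70) and SRSF2, the speckle protein SC35, at -0.06 (0.73). The 95% confidence interval for SRSF11 ran from -0.11 to 0.12 and that for SRSF4 from -0.11 to 0.05.

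The hnRNP genes had smaller differences from DMSO in the median, although the contrast with the SR proteins was not tested. At 500 nM 1 of 21, HNRNPU, rose, and the other 20 did not pass, with log2 fold changes between -0.10 and 0.15. Of all tested genes 17.8% passed in the same comparison, 7.69% higher and 10.1% lower. In the A/B and D group, which includes the splicing repressors HNRNPA1 and HNRNPA2B1 and the AU-rich element binding protein HNRNPD, 0 of 8 passed and the median was 0.02. HNRNPA1 was at 0.01 with a 95% confidence interval from -0.08 to 0.10, and HNRNPD at 0.002 with an interval from -0.09 to 0.10. HNRNPA2B1 had 16836, 16494 and 16930 normalized counts in DMSO and 17078, 17619 and 17772 at 500 nM, which did not overlap (0.06, adjusted p = 0.33). HNRNPC, which binds uridine tracts, was at -0.02 (adjusted p = 0.82). All 4 of the F/H group, which bind runs of G, had values above 0 but none passed, from HNRNPH2 at 0.03 to HNRNPH1 at 0.10 (adjusted p = 0.17). HNRNPM had 5921, 5868 and 5875 in DMSO and 6731, 6501 and 6375 at 500 nM, with no overlap, and was the nearest to a call (0.15, adjusted p = 0.072). It passed with the 6 libraries of the 2 groups alone (adjusted p = 0.0026) and without 0.5 nM replicate 2 (adjusted p = 0.0072). HNRNPLL was at -0.10 (adjusted p = 0.15), the poly-C binding HNRNPK at -0.04 (0.51) and HNRNPL, which binds CA repeats, at 0.07 (0.34). HNRNPK had 10678 to 10851 normalized counts in DMSO and was lower in every treated library. It had 10282 to 10461 at 0.5 nM, 10327 to 10583 at 5 nM, 10072 to 10304 at 50 nM and 10416 to 10559 at 500 nM. None of these differences passed, and at 500 nM 19.6% of all tested genes lay fully below DMSO. HNRNPUL1 and HNRNPUL2, relatives of HNRNPU, were at 0.06 (0.45) and 0.03 (0.83). HNRNPUL2 shares 44.3% of its exon length, with a readthrough gene on the same strand, and HNRNPA3 shares 54.8%, mainly with NFE2L2 on the opposite strand.

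**Figure D4:**
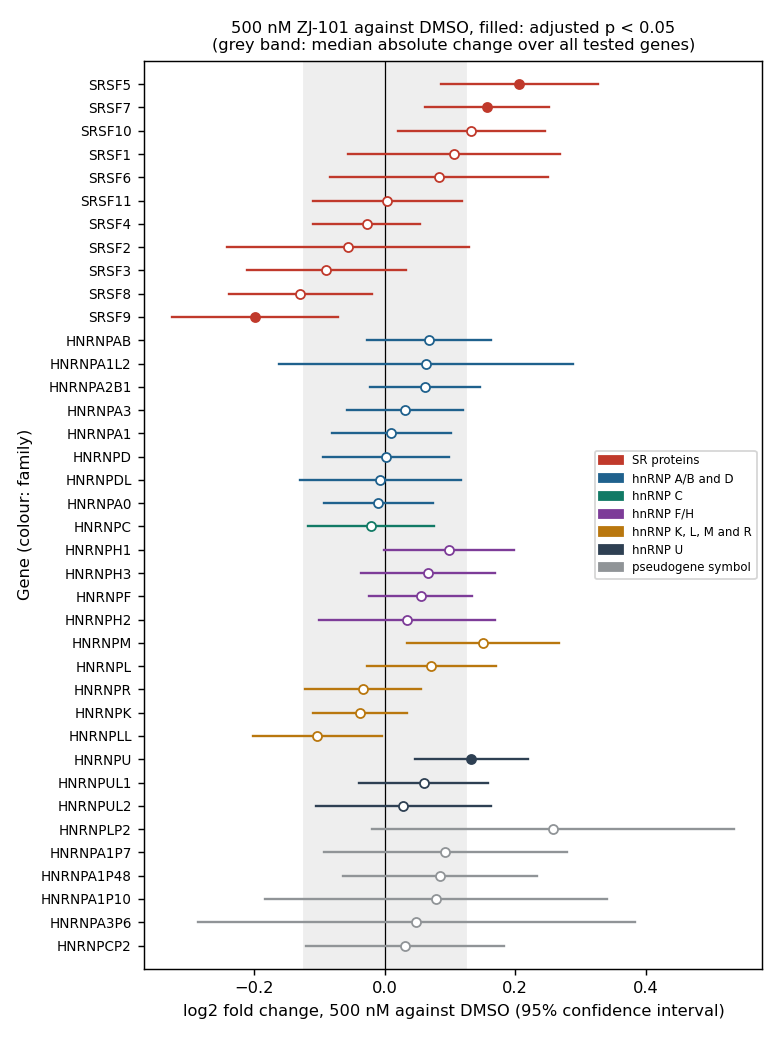
Log2 fold change at 500 nM ZJ-101 against DMSO with its 95% confidence interval for each of the 38 symbols, coloured by family and filled where the adjusted p was under 0.05. The 11 SR proteins spread from -0.20 to 0.21, most hnRNP genes lie inside the grey band of ±0.12 (the median absolute change of all tested genes), and the interval of HNRNPLP2 reaches farthest from 0.

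The 6 symbols with a pseudogene name had a small fraction of the signal of their parent gene. None passed at any dose. HNRNPA1P7 stood at 2.89 to 4.09% of HNRNPA1 across the 15 libraries, HNRNPA1P48 at 2.71 to 3.19% and HNRNPA1P10 at 0.777 to 1.20%. HNRNPA1P48 matched the current symbol HNRNPA1L3, annotated as protein coding. HNRNPCP2 stood at 2.88 to 3.47% of HNRNPC, HNRNPLP2 at 1.79 to 2.82% of HNRNPL and HNRNPA3P6 at 0.664 to 1.02% of HNRNPA3. The transcript of HNRNPA1P7 aligned to HNRNPA1 with 99.5% identity over 78.1% of its length. HNRNPA1L2, counted with the A/B group, stood at 0.825 to 1.10% of HNRNPA1 and lies fully within another annotated gene. Because reads can be split between such near-identical copies, the values of these 7 symbols are uncertain. HNRNPLP2 had 65 to 76 normalized counts in DMSO and 92 or more at 5 nM, the largest log2 fold change of any of the 38 at any dose (0.41 ± 0.13, adjusted p = 0.14), while HNRNPL had 3407 to 3612 in DMSO and 3362 to 3762 at 5 nM.

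In a few libraries most SR protein mRNAs stood on the same side of their group mean. In 0.5 nM replicate 2, 10 of 11 SR proteins had their highest value of the group and their median deviation from the group mean was 0.10 on the log2 scale, while the median over all tested genes was 0.003. SRSF2 had 2844 normalized counts there against 2222 and 1944 in the other 2 libraries. In 0.5 nM replicate 3 the median deviation of the SR proteins was -0.09. In 500 nM replicate 2, 8 of 11 SR proteins were the highest of the group, with a median deviation of 0.05. Without this library all 4 genes lost their 500 nM calls, as they did without DMSO replicate 1 or DMSO replicate 2. Calls over all tested genes then fell from 2409 to 1894. The log2 fold changes were then 0.14 for SRSF5, SRSF7 and HNRNPU and -0.21 for SRSF9. With all libraries they were 0.21, 0.16, 0.13 and -0.20, so only those of SRSF5 and SRSF7 came nearer to 0. The hnRNP genes deviated less, by 0.05 in 0.5 nM replicate 2 and by -0.01 in 500 nM replicate 2. Still, 16 of the 21 had their highest value of the group in 0.5 nM replicate 2, and 6 of 21 in 500 nM replicate 2. In 5 nM replicate 2, 13 of 21 were the highest, with a median deviation of 0.02. The share of all tested genes that were highest in a given library was not computed. The share of mitochondrial reads was 1.88% in 0.5 nM replicate 2 and 1.83% in 500 nM replicate 2, the highest of their groups, and 0.889% in 0.5 nM replicate 3, the lowest of its group. The highest share of all 15 libraries, 2.06%, was in 5 nM replicate 3, where the median deviation of the SR proteins was -0.02. Over the groups this share was 0.942 to 1.58% in DMSO, 0.889 to 1.88% at 0.5 nM, 1.502 to 2.06% at 5 nM, 1.15 to 1.77% at 50 nM and 1.02 to 1.83% at 500 nM. Its part in the levels of SR proteins was not tested.

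**Figure D5:**
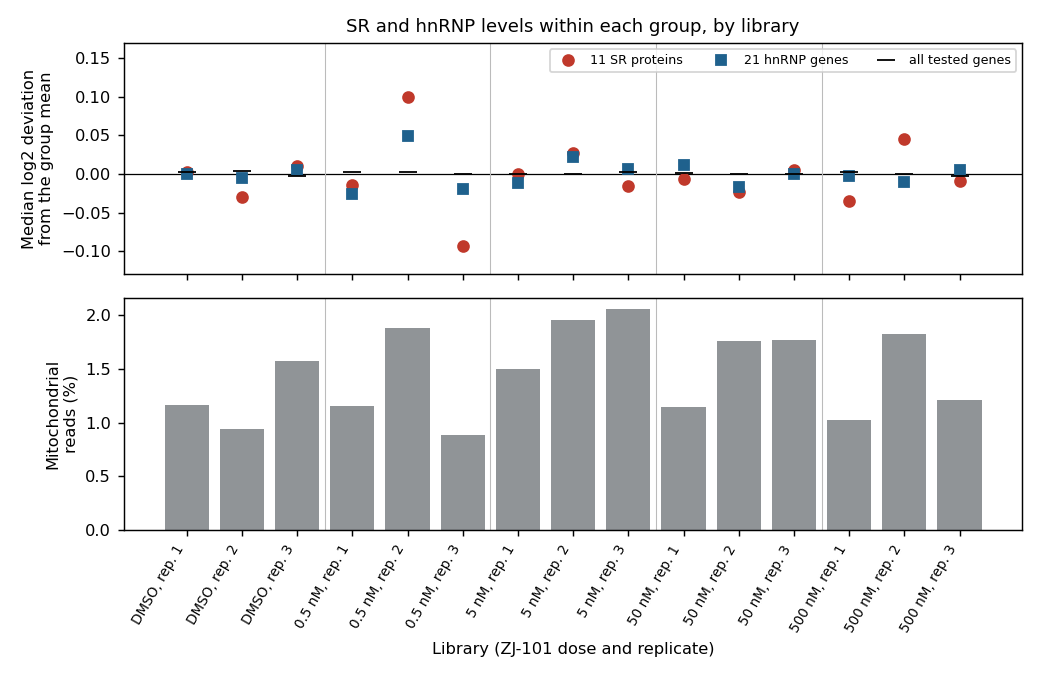
Upper panel, median log2 deviation from the group mean of the 11 SR proteins, the 21 hnRNP genes and all 13561 tested genes in each of 15 libraries; lower panel, percent of reads from mitochondrial genes. The SR proteins deviate most in 0.5 nM replicates 2 (0.10) and 3 (-0.09), and all tested genes stay near 0.

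Pairs of related genes were set against each other within a library, since such a ratio hardly depends on the scaling of the library. The log2 ratio of SRSF7 to SRSF3 was -1.47 ± 0.05 (SD, n = 3) in DMSO, -1.28 ± 0.02 at 50 nM and -1.23 ± 0.02 at 500 nM. It lay between -1.54 and -1.39 in the 6 libraries at 0.5 and 5 nM, so all libraries at 50 and 500 nM were above all others. SRSF1 to SRSF9 was -1.18 ± 0.06 in DMSO and -0.88 ± 0.16 at 500 nM, and SRSF5 to SRSF4 was -0.30 ± 0.06 and -0.07 ± 0.12. HNRNPU to HNRNPUL1 was 0.92 ± 0.02 and 1.00 ± 0.02. Of 8 pairs compared, 6 did not overlap between DMSO and 500 nM and each of these had an exact two-sided permutation p of 0.10, the smallest that 3 libraries against 3 allow, or 0.13 after Benjamini-Hochberg adjustment over the 8 pairs. Of these 6 pairs, 5 contain a gene called at 500 nM, and the libraries of 38.5% of single genes did not overlap in the same comparison. A share for ratios of 2 genes was not computed. The pairs were chosen with earlier results of these data known, so their separation is a description only. SRSF2 to SRSF8 and HNRNPH1 to HNRNPF overlapped (exact p = 0.40 and 0.50).

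The machinery around these proteins was described with 4 lists of other genes. In total 136 of 141 listed genes were tested. No listed gene passed at 0.5, 5 or 50 nM, where unadjusted p in limma was under 0.05 for 20, 7 and 7 of them. These are 14.7%, 5.15% and 5.15% of the 136, against 14.7%, 12.9% and 17.4% of all tested genes. At 500 nM 11 rose and 2 fell, or 8.09% and 1.47% of the 136, against 7.69% and 10.1% of all tested genes. In the core of the spliceosome 2 of 58 rose, SF3A2 (log2 fold change 0.18, adjusted p = 0.013) and the helicase DDX23 (0.16, adjusted p = 0.010), and 1 fell, the second-step factor SLU7 (-0.20, adjusted p = 0.0055). Among 31 SR-related proteins and SR protein kinases 2 rose. SRRM2, a scaffold of nuclear speckles, went from 3923 ± 200.1 (SD, n = 3) to 5256 ± 588 normalized counts (0.42, adjusted p = 0.012), and PNN, a speckle and exon junction protein, from 2143 ± 83.2 to 2658 ± 173 (0.31, adjusted p = 6.0e-04). Both log2 fold changes were above the 0.21 of SRSF5, the largest of an SR protein, but these differences were not tested. The rise of SRRM2 did not follow the dose. It had 4818, 5344 and 5380 normalized counts at 5 nM, and its log2 fold change at 50 nM was 0.095 (adjusted p = 0.74 in limma). Of 32 hnRNP-related RNA-binding proteins 4 rose and 1 fell. Those that rose included SFPQ (0.20, adjusted p = 0.016) and CELF1 (0.15, adjusted p = 0.040), and PTBP3, a paralogue of the polypyrimidine tract binding protein, fell (-0.19, adjusted p = 0.034). Of 15 nonsense-mediated decay factors 3 rose, SMG8 (0.26, adjusted p = 0.022), SMG5 (0.21, adjusted p = 0.0017) and UPF1 (0.17, adjusted p = 0.017), and none fell. The median log2 fold changes of the lists were 0.02, 0.02, 0.04 and 0.09 in this order, against 0.003 over all tested genes. PRPF8, LSM2, CLK2, TAF15 and SNRPN had means under 10 and were not tested. The first 4 have at least 1 further copy each on alternate contigs of the genome, and the part of these copies in the low counts was not tested.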

How the data were processed

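Poly-A RNA of MDA-MB-231 cells was sequenced in paired 150 bp reads. HISAT2 was the authors' aligner (hg38), HTSeq gave reads per gene, and DESeq2 normalized them. The deposited values are a signal, counts divided by each library's size factor. Whole reads were recovered from them for 100% of values (tolerance 0.001). Libraries were grouped by their labels. Genes with a mean of at least 10 were tested with limma 3.58.1 in R 4.3.3 on log2(normalized count + 1), over all 15 libraries (10 residual degrees of freedom), with Benjamini-Hochberg adjustment and a threshold of 0.05. The step was tested on simulated data.

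Alternatives were pseudocounts of 0.5 and 5, other filters (none, mean of at least 50), TMM scaling, equal totals, a replicate block, removal of length and GC trends, fewer groups, each library left out, and edgeR 4.0.16 and DESeq2 1.42.0 on recovered reads. Positions and lengths came from GENCODE 44, and copies were found with minimap2 2.31-r1302 (at least 95% identity over 50% of a transcript). Promoters came from RefSeq (GRCh38.p14). Whether counting used strand was not given in the sources used here. Members, lists and gene pairs were chosen with earlier results of these data known. Members that passed at 50 or 500 nM are given in every library, those that passed by slope as group means, and from each list up to the 3 largest rises and falls at 500 nM. One list gene that this rule selects is not reported here.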

Additional observations from a re-analysis of the deposited data

How the results depend on the processing

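Of 156 recomputed counts of called genes among the 38, 132 stayed within 1.5 times the count reported. With no filter on low values the count was 0 at 50 nM, 1 at 500 nM (SRSF5) and 1 for the slope (SRSF8). Over all tested genes the calls also fell in that setting, to 678, 2023 and 1906. In the main fit they were 814, 2409 and 2381. With length and GC trends removed, it was 1 at 5 nM (SRSF5) and 2 at 50 nM (SRSF7 and SRSF10). In the same setting it was 7 at 500 nM, where SRSF10, HNRNPM and HNRNPA2B1 joined, and 1 from 50 to 500 nM (SRSF9). Calls over all tested genes rose there too, to 469 at 5 nM, 1223 at 50 nM, 2958 at 500 nM and 459 from 50 to 500 nM. The main fit gave 295, 814, 2409 and 309. DESeq2 also gave 1 from 50 to 500 nM, and the 6 libraries of the compared groups alone gave 1 at 5 nM. Leaving out each library in turn gave 0 at 0.5 nM throughout, 0 to 1 at 5 nM, 0 to 1 at 50 nM, 0 to 5 at 500 nM, 2 to 6 for the slope and 0 to 1 from 50 to 500 nM. At 500 nM the count was 0 without DMSO replicate 1, DMSO replicate 2 or 500 nM replicate 2, 1 without 500 nM replicate 3 and 2 without DMSO replicate 3. Calls over all tested genes fell as well, from 2409 to 1855, 1795, 1894, 1934 and 1850 in that order. The count of 5 came without 0.5 nM replicate 2, where 3097 of all tested genes were called. Of 1118 recomputed values of single genes, 40 lost a call, 6 gained one and none that was called changed sign; the cause was not tested. Both pseudocounts, TMM scaling, equal totals, edgeR and a mean of at least 50 kept the counts at 1 for 50 nM, 4 for 500 nM and 4 for the slope. With a replicate block the counts were 0, 0, 1, 4, 4 and 0 in the order of the comparisons, which changed no call. Libraries with the same replicate number deviated together with a median correlation of 0.020 (-0.158 to 0.215 over 30 pairs), against -0.003 for the other 60 pairs, so they were taken to share only a number. With 3 libraries a group, the 95% confidence interval of a log2 fold change had a median half-width of 0.11 for the 38 symbols. Smaller differences were mostly not detectable. This interval is not adjusted for the number of genes, and larger differences also did not pass in limma. Examples are HNRNPM at 500 nM (0.15, adjusted p = 0.072) and SRSF5 at 5 nM (0.19, adjusted p = 0.10).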
